A study of Mus musculus with 6 samples.

Results

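The genes described here are 7 early-response genes of activated T cells, namely the orphan nuclear receptor genes Nr4a1, Nr4a2 and Nr4a3, the zinc finger genes Egr1, Egr2 and Egr3, and Cd69, an early surface marker of activation. They were taken by name from a table of 24493 gene symbols, which held all 7. Of these, 6 averaged 1 TPM or more and were tested among 12141 such genes, while Nr4a3 lay below that level. TPM is each gene's length-corrected share of the transcripts of a library. Messenger RNA was sequenced from mouse CD4 T cells that had been isolated as naive cells from spleen and driven in culture towards regulatory T (Treg) cells, the T cells that restrain immune responses. The control group was 3 wild-type (WT) libraries. The other group was 3 libraries of the Ifnar1-SA genotype, an altered allele of Ifnar1, which encodes part of the receptor for type I interferons. In published work SA denotes a knock-in whose receptor carries alanine in place of the serine that marks it for degradation. The comparison asked how transcript levels differed between the genotypes. The sources used here do not give the age, sex or strain of the animals, the time in culture or the agents that induced the cells. They also leave unstated whether replicates came from different mice, so p-values cover only the spread among these samples, and that spread may be technical.

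Signals from the T cell receptor open the Nr4a and Egr genes within minutes, without new protein synthesis, and their transcripts decay quickly once signalling stops. The Egr genes follow the MAP kinase branch, through serum response factor and its Elk partners at CArG boxes, and the calcium branch, through NFAT. The Nr4a genes follow calcium, NFAT and cyclic AMP signals, the last through CREB at cyclic AMP response elements. In CD4 T cells Egr2 and Egr3 restrain activation and are linked to anergy, and the Nr4a receptors promote Foxp3 expression and Treg identity. CD69 binds the egress receptor S1PR1 and holds activated cells in tissue.

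Upstream sequence from RefSeq (build GRCm38.p6) is shown for the genes below because the Nr4a genes share a feature there that their selection did not use. Of the 6 members looked up by symbol, 4 had an entry, namely Nr4a1, Nr4a2, Nr4a3 and Egr2. Windows held the 250 bases before a transcript start, 5′ to 3′ on the gene's strand. Capitals mark the CRE half-site TGACG, the core of the cyclic AMP response element, on either strand, and, in Egr2, also the CArG box. Of Nr4a3 a stretch of 30 bases with 2 of its half-sites is given.
Nr4a1, chr15:101266596-101266845, plus strand: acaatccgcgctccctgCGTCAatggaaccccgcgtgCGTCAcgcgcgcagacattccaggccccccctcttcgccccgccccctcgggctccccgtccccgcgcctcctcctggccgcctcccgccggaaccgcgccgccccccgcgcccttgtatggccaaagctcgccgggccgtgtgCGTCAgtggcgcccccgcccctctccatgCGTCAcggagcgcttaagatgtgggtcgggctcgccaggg
Nr4a2, chr2:57124004-57124253, minus strand: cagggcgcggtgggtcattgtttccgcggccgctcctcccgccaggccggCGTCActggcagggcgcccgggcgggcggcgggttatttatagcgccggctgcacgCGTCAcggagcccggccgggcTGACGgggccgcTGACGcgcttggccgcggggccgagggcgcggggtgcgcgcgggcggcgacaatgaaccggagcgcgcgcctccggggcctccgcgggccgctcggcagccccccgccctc
Nr4a3, chr4:48045085-48045114, plus strand: cccatgtCGTCAcatTGACGtctcgcattc
Egr2, chr10:67537619-67537868, plus strand: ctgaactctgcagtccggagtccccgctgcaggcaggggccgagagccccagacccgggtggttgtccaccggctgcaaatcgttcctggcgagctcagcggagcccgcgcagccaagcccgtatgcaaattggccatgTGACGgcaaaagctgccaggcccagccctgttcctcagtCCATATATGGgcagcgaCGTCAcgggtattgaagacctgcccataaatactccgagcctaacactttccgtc

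Each of the 3 Nr4a windows held 4 matches to TGACG. Among all 32851 promoter windows of the same length, 17.8% held at least 1 match and 0.137% held at least 4. These windows were not matched to the Nr4a windows for GC content, which bears on how often such letters occur. The full palindromic element TGACGTCA, of which TGACG is the first part, was found in 0 of these windows of Nr4a1, Nr4a2 and Nr4a3 and in 1.55% of all windows. The Egr2 window printed above held 2 half-sites and 1 CArG box, which 1.47% of all windows held. It is 1 of 5 overlapping or alternative Egr2 windows, of which 3 held a half-site and 4 a CArG box. The Nr4a1 and Nr4a2 windows also held 1 match each to GCGNGGGCG, an Egr recognition motif found in 4.70% of all windows. The core of the interferon-stimulated response element, present in 2.98% of all windows, and the Nr4a recognition motif AAAGGTCA, present in 1.34%, were found in 0 windows of these 4 genes. All motifs were searched on both strands. A match is a description of letters, and binding was not measured. By GENCODE the Nr4a2 window lies before the gene, the Nr4a1 and printed Egr2 windows lie inside the gene span but outside exons, and 152 bases of the Nr4a3 window lie in exons of other Nr4a3 transcripts. GC content was 74.4% in the Nr4a1 window, 80.0% in the Nr4a2 window and 63.6% in the Nr4a3 window.

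Between 21925 and 22958 genes were above 0 in a library, and pairs of libraries had a Pearson's r of 0.939 to 0.966 across genes, which do not serve as independent replicates. WT 2 stood apart in the level of the median gene, which was 1.21 TPM against 0.668 to 0.914 TPM elsewhere. A single gene annotated as a microRNA, Mir6236, took 118851 TPM in WT 2 and 65232 to 95484 TPM in the others. Genes of small RNAs took 15.4% of the TPM in WT 2 and 10.8% to 12.7% in the others. Mir6236 is counted in that share and makes up most of it, so these are not separate signs. A panel of 5 CD4 T cell markers summed to 1652 to 1762 TPM in the WT libraries, all below the 1776 to 1975 TPM of the Ifnar1-SA libraries, but overlapped with median-of-ratios scaling (WT 1329 to 1924, Ifnar1-SA 1699 to 2264). Cd3g and Cd3d were higher on average in Ifnar1-SA, while Cd3e was lower, at a mean of 98.0 against 109 TPM. Foxp3, the defining transcription factor of Treg cells, was at most 1.82 TPM in any library, so the Treg label is not borne out by that marker. At this low level every Ifnar1-SA library was nevertheless above every WT library as deposited. The gap was narrow, since WT 1 reached 0.697 TPM and Ifnar1-SA 1, the lowest of its genotype, 0.746 TPM. Whether this order of Foxp3 holds with other scaling was not tested. Of the 8 Treg markers, Ikzf2, Itgae and Lrrc32 were also low, at no more than 1.97, 1.42 and 2.73 TPM in any library. Nearly all of the summed level of 3864 to 5019 TPM came from Izumo1r and from Tnfrsf18, Ctla4 and Il2ra, which activated T cells also express. Markers of other cells were low. Summed levels were at most 18.1 TPM for CD8 T cells (2 genes), 2.53 TPM for NK cells (5 genes), 11.4 TPM for B cells (5 genes) and 3.24 TPM for myeloid cells (6 genes), and each range overlapped between the genotypes. In bulk RNA, fewer cells expressing a gene and less RNA per cell cannot be told apart.

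In TPM, which corrects for length and so allows genes to be set side by side, the 7 genes fell in a steady order. Over the 6 libraries Egr1 averaged 43.6 TPM, higher than 90.9% of the genes in the table. Egr2 followed at 21.7 TPM and was below Egr1 in 6 of 6 libraries. Cd69 averaged 14.7 TPM and was below Egr2 in 5 of 6 libraries, so the ranges of this pair overlapped. Nr4a2 averaged 8.76 TPM and was below Cd69 in 6 of 6 libraries, although their ranges over libraries overlapped. Nr4a1 averaged 5.31 TPM, Egr3 1.95 TPM and Nr4a3 0.710 TPM, each below the gene before it in 6 of 6 libraries without overlap of their ranges. Egr1 and Egr2, and not the Nr4a genes, thus held most of the transcripts of these families, with Egr sums of 60.6 to 76.7 TPM and Nr4a sums of 10.6 to 16.8 TPM in a library. Egr4, the remaining Egr family gene and not among the 7, was at most 0.0916 TPM.

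**Figure D1:**
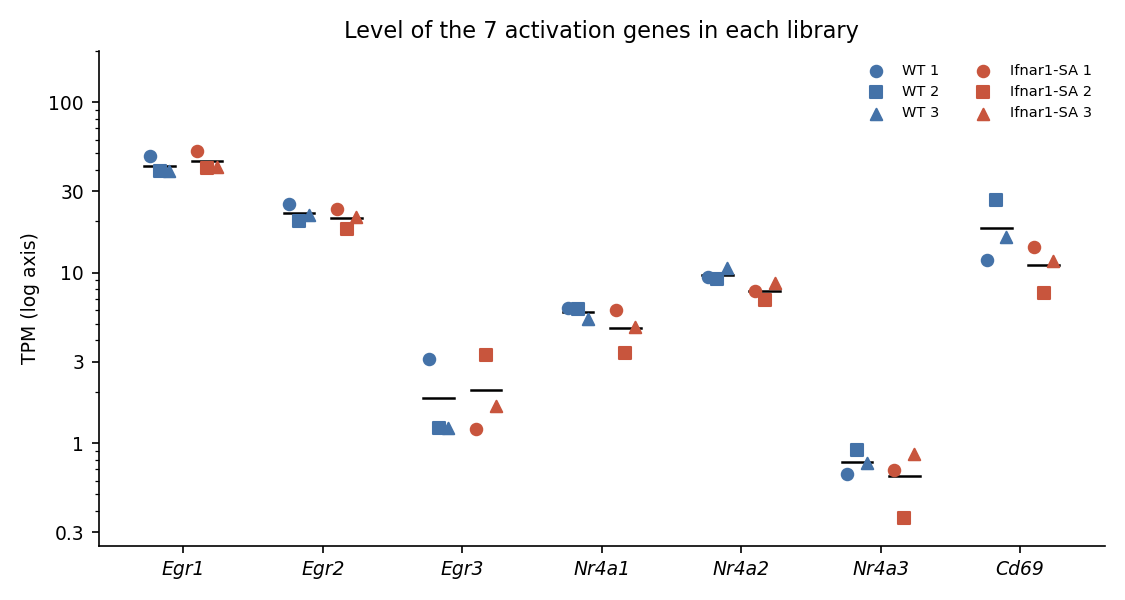
TPM of each gene on a log axis, with 3 WT libraries in blue, 3 Ifnar1-SA libraries in red, symbols for the library number and a bar at each genotype mean. As deposited, only the Nr4a2 points of the genotypes do not overlap, with the lowest WT library at 9.14 TPM and the highest Ifnar1-SA library at 8.69 TPM.

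None of the tested genes passed between the genotypes. Of the 6, 0 had an adjusted p below 0.05 with limma over all 12141 genes, and 0 had an unadjusted p below 0.05. The background was 0.0577% of all genes called with adjustment and 3.12% without it. The 7 genes called were all microRNA genes, very short genes for which a small number of fragments gives a high TPM. Whether that bears on these calls was not tested. The adjusted p was 0.9997 for each of the 6 genes. By mean log2 value 4 of the 6 were lower in Ifnar1-SA and 2 higher, beside 62.9% lower among all genes tested. Their median log2 fold change was −0.19, against −0.06 over all genes tested. Libraries did not overlap for 1 of the 7 genes, Nr4a2, beside 5.77% of all genes tested.

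Nr4a2, also known as Nurr1 (chr2:57106830-57124003, minus strand, protein-coding), was the member with separate genotypes. The WT libraries held 9.36, 9.14 and 10.7 TPM and the Ifnar1-SA libraries 7.84, 6.86 and 8.69 TPM. Every Ifnar1-SA library was below every WT library. Of all genes tested, 3.80% were separated in this direction. Means were 9.73 ± 0.830 TPM for WT and 7.80 ± 0.913 TPM for Ifnar1-SA (SD, n = 3 each), a ratio of 0.801. The log2 fold change was −0.29 with a standard error of 0.15 (95% interval −0.64 to 0.06, limma adjusted p = 0.9997). The exact two-sided permutation p was 0.1, the smallest that 3 against 3 libraries allow. With median-of-ratios scaling WT libraries ranged from 7.12 to 10.8 and Ifnar1-SA libraries from 6.80 to 9.96, with overlap, and the genotypes also overlapped with TMM (trimmed mean of M-values) scaling.

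Nr4a1, also known as Nur77 and widely used as a reporter of receptor signal strength (chr15:101254269-101274795, plus strand), gave 6.18, 6.12 and 5.35 TPM in the WT libraries. The Ifnar1-SA libraries held 6.04, 3.38 and 4.78 TPM. The low value came from Ifnar1-SA 2, while Ifnar1-SA 1 lay within the WT range. The means were 5.89 ± 0.465 and 4.73 ± 1.33 TPM (SD, n = 3 each), with a log2 fold change of −0.29 and a standard error of 0.20 (95% interval −0.76 to 0.19, limma adjusted p = 0.9997). Without Ifnar1-SA 2 the log2 fold change was −0.11, and without Ifnar1-SA 1 it was −0.45.

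Nr4a3, the third receptor of the family (chr4:48045153-48086447, plus strand), was close to the floor. WT libraries held 0.661, 0.913 and 0.763 TPM and Ifnar1-SA libraries 0.696, 0.363 and 0.866 TPM. The genotypes overlapped, and the exact two-sided permutation p was 0.5 (n = 3 each). Summed over the family, Nr4a transcripts measured 16.2, 16.2 and 16.8 TPM for WT against 14.6, 10.6 and 14.3 TPM for Ifnar1-SA. These sums did not overlap as deposited, and did overlap with median-of-ratios scaling (WT 12.6 to 17.7, Ifnar1-SA 11.4 to 16.4) and with TMM scaling.

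Egr1, the most abundant member and the classical immediate-early zinc finger gene, measured 48.3, 39.2 and 39.6 TPM for WT against 51.9, 41.3 and 41.4 TPM for Ifnar1-SA. Each genotype had 1 library near 50 TPM and a pair near 40 TPM, and the genotypes overlapped. Both lower WT libraries lay below every Ifnar1-SA library. The log2 fold change was 0.08 with a standard error of 0.17 (95% interval −0.32 to 0.48, limma adjusted p = 0.9997). On the scale of TPM + 1 this interval runs from a ratio of 0.802 to one of 1.39.

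Egr2, a restraint on T cell activation (chr10:67535475-67542188, plus strand), measured 25.2, 20.1 and 21.8 TPM for WT against 23.6, 18.1 and 21.2 TPM for Ifnar1-SA. The ranges overlapped in most of their extent. The log2 fold change was −0.09 with a standard error of 0.16 (95% interval −0.48 to 0.30, limma adjusted p = 0.9997), or a ratio between 0.717 and 1.23. Egr1 and Egr2 also varied little from library to library, with coefficients of variation of 12.0% and 11.5% over the 6 libraries. Their within-genotype SD of log2 values was 0.18 and 0.17, at the 22.4th and 20.5th percentile of all genes tested, where the median was 0.25.

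Egr3, the closest functional partner of Egr2 (chr14:70077203-70082614, plus strand), had another pattern over the libraries. WT libraries held 3.10, 1.22 and 1.23 TPM and Ifnar1-SA libraries 1.21, 3.30 and 1.66 TPM. One library of each genotype, WT 1 and Ifnar1-SA 2, held about 3 TPM and the other 4 held at most 1.66 TPM. The log2 fold change was 0.11 with a standard error of 0.34 (95% interval −0.71 to 0.92, limma adjusted p = 0.9997). The within-genotype SD of log2 values, 0.50, was at the 89.7th percentile of all genes tested and the interval spans ratios from 0.612 to 1.90. The sign turned without Ifnar1-SA 2 (−0.17), WT 2 (−0.04) or WT 3 (−0.04).

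Cd69 (chr6:129267325-129275436, minus strand) had the largest log2 difference of the 7 and a wide spread. WT libraries held 11.9, 26.6 and 16.3 TPM and Ifnar1-SA libraries 14.1, 7.62 and 11.7 TPM. The highest library was WT 2 and the lowest Ifnar1-SA 2, and the remaining 4 lay between 11.7 and 16.3 TPM with both genotypes among them. The means were 18.3 ± 7.56 and 11.1 ± 3.28 TPM (SD, n = 3 each), a ratio of 0.610. The log2 fold change was −0.63 with a standard error of 0.33 (95% interval −1.41 to 0.14, limma adjusted p = 0.9997), and the exact two-sided permutation p was 0.2. It was −0.34 without WT 2 and −0.40 without Ifnar1-SA 2. WT 2 was the library with the highest median gene and the largest small RNA share, and its part in the Cd69 difference beyond these values was not tested.

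**Figure D2:**
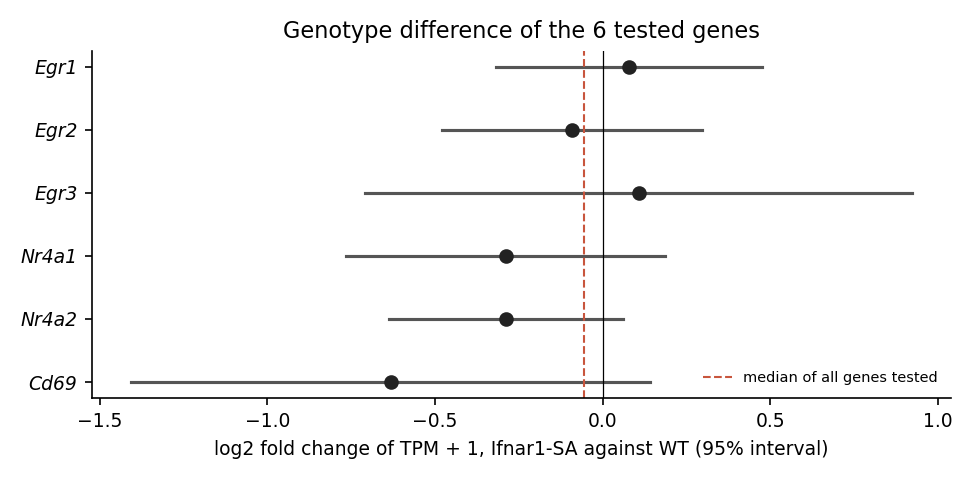
Log2 fold change of TPM + 1 for the 6 genes tested, Ifnar1-SA against WT, with the limma 95% interval as a line and the median of all genes tested as a dashed line. All 6 intervals include 0, and they are widest for Egr3 and Cd69.

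The deposited scaling bears on small differences of this kind. With TMM scaling the median log2 fold change of all genes moved by 0.12, from −0.06 to 0.07, and the share of genes lower in Ifnar1-SA went from 62.9% to 35.1%. A factor per library moves all genes nearly alike, so values relative to the median of all genes change little by construction. Cd69 was at −0.58 with the deposited values and −0.56 with TMM. Nr4a1 was at −0.23 and −0.24, and Nr4a2 at −0.23 and −0.23. Egr1 was at 0.13 and 0.15, and Egr2 at −0.04 and −0.02. Egr3 was at 0.16 and 0.12, and Nr4a3 moved most in proportion, from −0.07 to −0.13. Egr2 changed sign on the unadjusted scale, from −0.09 to 0.05.

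Ratios between members within a library do not depend on its scaling. A set of 7 ratios was chosen after the values had been seen. Egr2 relative to Egr1 was 0.521, 0.513 and 0.551 in WT and 0.455, 0.439 and 0.512 in Ifnar1-SA. Nr4a1 relative to Egr1 was 0.128, 0.156 and 0.135 in WT and 0.117, 0.0818 and 0.115 in Ifnar1-SA. Both ratios were lower in every Ifnar1-SA library, with an exact two-sided permutation p of 0.1, or 0.35 adjusted over the 7 ratios. Relative to Egr1, 5.92% of the other genes tested were separated in this direction. The other 5 ratios overlapped between the genotypes, with exact permutation p of 0.2 to 0.9. The Egr2 ratio of Ifnar1-SA 3, at 0.512, lay next to the lowest WT value. Nr4a2 relative to Nr4a1 was above 1 in 6 of 6 libraries, at between 1.49 and 1.996 in WT and between 1.30 and 2.03 in Ifnar1-SA.

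The 7 genes did not move as a block across libraries. Ifnar1-SA 2 was the lowest library for 5 of them, Nr4a1, Nr4a2, Nr4a3, Egr2 and Cd69, and the highest for Egr3. It also had the fewest genes above 0, at 21925. The share of all genes lowest in Ifnar1-SA 2 was not counted, so the pattern cannot be called particular to the members. Egr1 and Egr2 were the pair with the most similar profiles among the 6 tested genes. The root mean square difference of their centred log2 profiles over the 6 libraries was 0.111. Cd69 and Egr3 were the least similar pair, at 0.867. This difference grows with the spread of each gene, so it does not measure shape alone. Coefficients of variation were lowest for Egr2 and Egr1 (11.5% and 12.0%) and highest for Cd69 and Egr3 (44.3% and 50.4%). WT 1 and Ifnar1-SA 1 were the highest pair of libraries for both Egr1 and Egr2, and WT 2 and WT 3 the highest pair for Cd69.

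**Figure D3:**
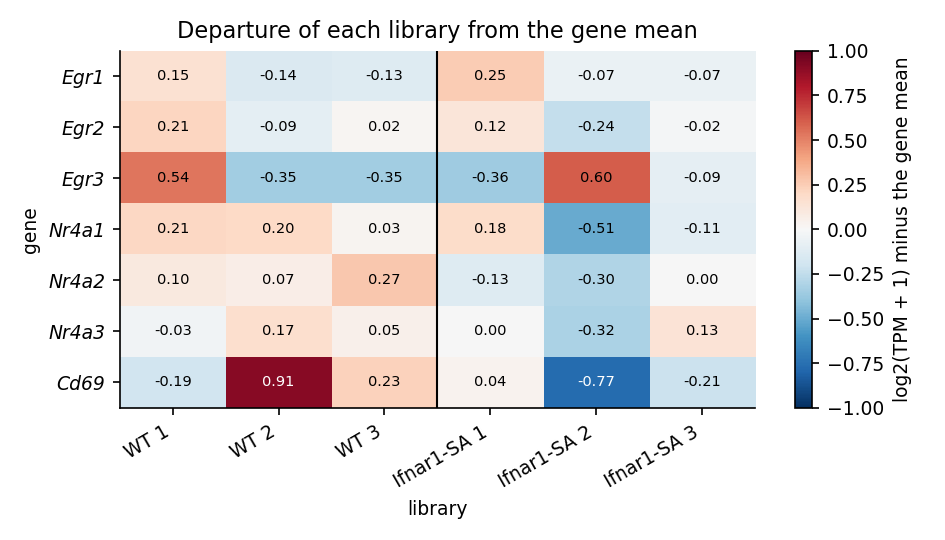
Heat map of log2(TPM + 1) minus the gene's mean over the 6 libraries, with genes in rows, libraries in columns, red above and blue below the mean, and a line between the genotypes. Ifnar1-SA 2 is below the mean in every row except Egr3, and Cd69 departs most from its mean, in WT 2 and Ifnar1-SA 2.

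Other genes with the most similar profiles were sought among those averaging 5 TPM or more. For Egr1 these were Prpf4 and Nsmce2, at a root mean square difference of 0.023 and 0.025 over 6 libraries, against a median of 0.208 over all such genes. For Egr2 they were Lrp10 and Hsph1 (0.032 and 0.045, median 0.224). For Nr4a1 they were Pex3 and Stk4 (0.055 and 0.087, median 0.255), and for Nr4a2 Cyb5a and Socs2 (0.067 and 0.074, median 0.291). For Egr3 they were Acyp1 and Bik (0.137 and 0.159, median 0.504), and for Cd69 Ly75 and Cnst (0.162 and 0.166, median 0.492). Acyp1 was, like Egr3, highest in Ifnar1-SA 2 and WT 1, at 26.4 and 23.5 TPM against 13.3 to 16.4 TPM in the other 4 libraries. Ly75 placed the 6 libraries in the same order as Cd69, which 0.964% of the other genes tested did. Acyp1 and Ly75 were chosen for closeness over these same libraries, so the shared patterns largely follow from that choice. The share of all genes is therefore no background for Ly75.

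The genes around the members were read from 6 lists of 102 symbols. Of the 87 genes tested, 0 passed with limma over all genes (lowest adjusted p 0.9997), beside 0.0577% of all genes tested. An unadjusted limma p below 0.05 was found for 3 of the 87, beside 3.12% of all genes tested. By mean log2 value 52 were lower in Ifnar1-SA, or 59.8%, beside 62.9% of all genes tested. Libraries did not overlap for 6 of them, or 6.90%, beside 5.77% of all genes tested. Each of these 6, among them Creb1, Ppp3r1, Ly6a and Ctla4 described next, overlapped with median-of-ratios and with TMM scaling. With median-of-ratios scaling 7 others of the 87, or 8.05%, did not overlap, beside 7.87% of all genes. With TMM scaling 7 others also did not, beside 7.42% of all genes. The median of 5 of the 6 lists changed sign under at least 1 setting.

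Of the partners and upstream factors of Egr and Nr4a proteins, 12 were tested, with a median log2 fold change of −0.03 against −0.06 over all genes. Creb1, the factor that binds cyclic AMP response elements, measured 3.22, 3.30 and 3.29 TPM for WT against 2.66, 2.69 and 2.81 TPM for Ifnar1-SA, without overlap (limma adjusted p = 0.9997). Nab1, a corepressor recruited by Egr proteins, measured 4.36, 5.08 and 4.38 TPM for WT against 4.90, 5.70 and 5.12 TPM for Ifnar1-SA. The 14 genes of the calcineurin and NFAT pathway had a median of −0.03, with 7 higher and 7 lower. Ppp3r1, the regulatory subunit of calcineurin, measured 58.0, 56.4 and 52.6 TPM for WT against 44.0, 45.2 and 50.4 TPM for Ifnar1-SA, without overlap (limma adjusted p = 0.9997). Camk4, a calcium-dependent kinase, measured 7.96, 13.2 and 9.55 TPM for WT against 10.002, 8.43 and 7.17 TPM for Ifnar1-SA.

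Of the other immediate-early genes 22 were tested, with 8 higher, 14 lower, a median of −0.10 and 0 without overlap. That median was 0.05 without WT 2 and 0.05 with TMM scaling. Dusp1, a MAP kinase phosphatase, measured 9.86, 12.9 and 11.8 TPM for WT against 10.1, 6.74 and 9.26 TPM for Ifnar1-SA. Atf3, a stress-induced transcription factor, measured 96.5, 124 and 91.2 TPM for WT against 101, 63.8 and 64.3 TPM for Ifnar1-SA. Both overlapped between the genotypes. Of the anergy and tolerance genes linked to Egr2, Egr3 and Nr4a, 12 were tested, with 4 higher, 8 lower and a median of −0.11, which was −0.26 without Ifnar1-SA 1 and 0.04 without WT 2. Cdkn1b, a cell cycle inhibitor, measured 2.95, 4.31 and 4.75 TPM for WT against 1.88, 3.52 and 2.71 TPM for Ifnar1-SA. Bach2, a transcriptional repressor of effector programmes, measured 4.87, 9.89 and 8.25 TPM for WT against 6.01, 5.04 and 5.08 TPM for Ifnar1-SA. Nrgn, a calmodulin-binding gene named after its values were seen, measured 4.14, 0.299 and 0.493 TPM for WT against 2.25, 5.82 and 1.88 TPM for Ifnar1-SA, so that Ifnar1-SA 2 and WT 1 were highest, as for Egr3.

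The 17 surface markers of activation had a median of −0.06, close to that of all genes, with 8 higher and 9 lower. Ly6a, the Sca-1 antigen and also an interferon target, measured 8392, 5722 and 6416 TPM for WT against 10003, 9541 and 12206 TPM for Ifnar1-SA. Ctla4, an inhibitory receptor, measured 698, 544 and 482 TPM for WT against 778, 876 and 762 TPM for Ifnar1-SA. As deposited, these 2 markers were higher in every Ifnar1-SA library, as were 1.97% of all genes tested, and did not pass with limma (adjusted p = 0.9997 each). With median-of-ratios scaling Ly6a reached 9162 in WT 1 against 8677 in Ifnar1-SA 1, and Ctla4 reached 762 in WT 1 against 675 in Ifnar1-SA 1. Of the Cd69 partner, egress and lectin genes 10 were tested, with 3 higher, 7 lower and a median of −0.16. Ccr7, the homing receptor of naive T cells, measured 91.8, 305 and 252 TPM for WT against 138, 50.9 and 78.02 TPM for Ifnar1-SA. Ccr7 placed the 6 libraries in the same order as Cd69, with overlap between the genotypes. S1pr1, the receptor that CD69 binds, named after its values were seen, measured 20.6, 30.8 and 22.9 TPM for WT against 27.1, 23.05 and 19.5 TPM for Ifnar1-SA, with overlap.

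**Figure D4:**
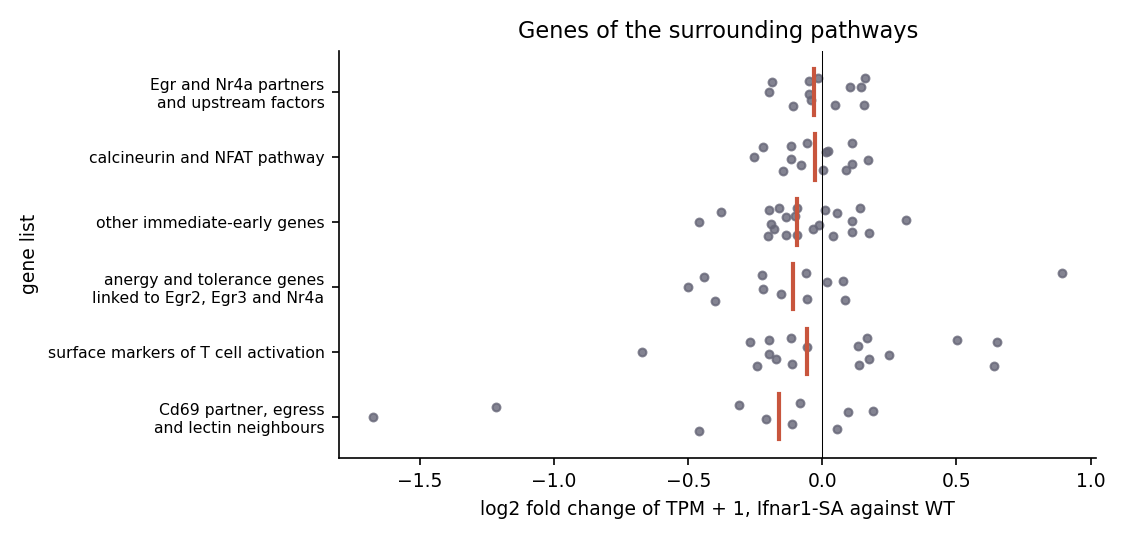
Log2 fold change of TPM + 1, Ifnar1-SA against WT, for each tested gene of the 6 lists, 1 point per gene, with the list median as a red bar. Medians lie between −0.16 and −0.03, and the points of each list lie on both sides of 0.

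Single libraries were left out to see how far each difference depended on them. Cd69 stayed between −0.89 and −0.34, Nr4a1 between −0.45 and −0.11 and Nr4a2 between −0.36 and −0.21 on the log2 scale. The Nr4a2 libraries of the genotypes did not overlap, so its direction could not change in this check. The share of all genes that kept their direction was not counted. Egr1, Egr2, Egr3 and Nr4a3 each changed sign without at least 1 library, from values near 0. None of the 6 tested genes passed with any library left out, and the lowest adjusted p over all settings was 0.456, for Cd69.

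**Figure D5:**
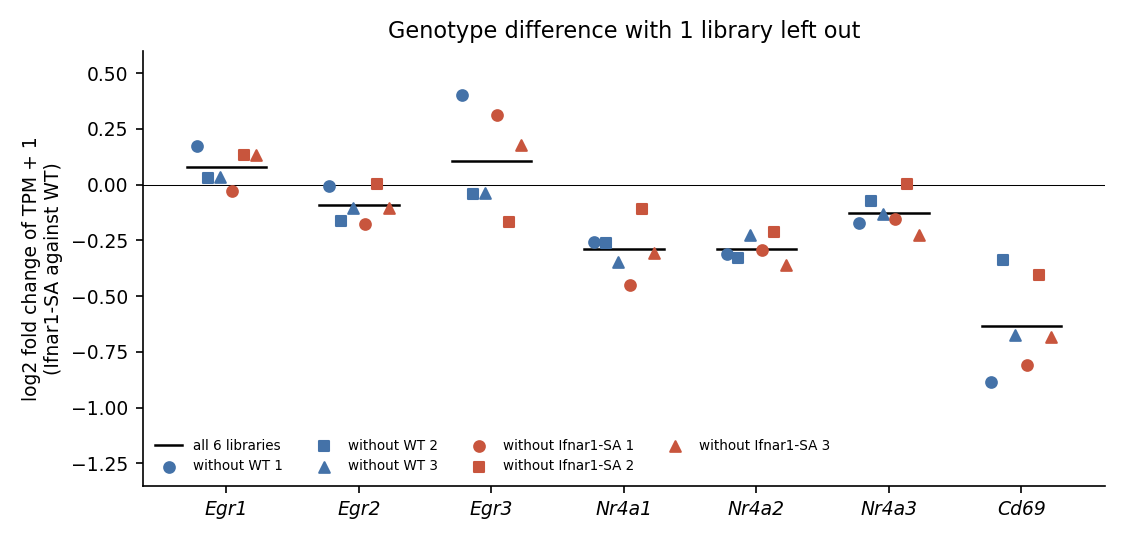
Log2 fold change of each gene, Ifnar1-SA against WT, with all 6 libraries (black bar) and with 1 library left out (blue for WT, red for Ifnar1-SA, symbol for the library number). Nr4a1, Nr4a2 and Cd69 stay below 0 in all 6 cases, and the other 4 genes cross it. For Nr4a2 this follows from the separation of its libraries.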

How the data were processed

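Gene-level TPM was deposited by the authors as 1 table with 6 columns, each matching the title of 1 sample. Salmon and the mouse builds mm10 and GRCm38 are named in the submitters' processing notes. The sources used here do not give the Salmon version, annotation, read filters or library depth, and 0 columns belonged to other samples. TPM keeps no sequencing depth, so no counting interval was given. The members and gene lists were chosen with earlier results of these data known.

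Values were tested as log2(TPM + 1) for genes averaging 1 TPM or more, with limma 3.58.1 (R 4.3.3, intensity trend, no replicate block, two-sided, Benjamini-Hochberg adjustment over all genes tested, threshold 0.05). This scale makes fold changes of low genes look smaller than they are. The procedure was tested on simulated data with independent noise, without shifts of whole libraries and with planted changes larger than any member's difference. That simulation does not show how well differences of the members' size are found. Single values were compared by exact two-sided permutation of the libraries.

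All members were named. From each list, genes past the threshold were named or, with none, the 2 of smallest p; 1 gene so chosen is not reported here. Of the 102 symbols, Folr4 was not found by that name. The 2 genes of closest profile were named for each tested member, predicted gene models left out. Other named genes were chosen after their values were seen. Positions are from GENCODE M21 on GRCm38, matched by symbol, and promoter windows from RefSeq GRCm38.p6. Sequence and position of Egr1 are not reported here. Alternatives were other pseudocounts, filters, scalings and variance settings, a replicate block and left-out libraries, 18 settings in all. Tables and figures used Python 3.11.15, pandas 2.3.3, numpy 2.4.6 and matplotlib 3.10.9.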

Additional observations from a re-analysis of the deposited data

How the results depend on the processing

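The 18 alternative settings gave no call for any of the 6 tested members. Nr4a1, Nr4a2 and Cd69 kept their direction in all 18. Other filters, no intensity trend, robust empirical Bayes and the replicate block do not alter a member's log2 fold change. Its direction was therefore fixed in those settings. The share of all genes that kept their direction was not counted. Without WT 1 or with array weights the unadjusted p of Cd69 fell below 0.05, as did that of Nr4a2 with array weights and that of Nr4a1 without Ifnar1-SA 1. Over all genes tested, 1233 of 12141 had an unadjusted limma p under 0.05 with array weights, against 379 in the main fit. Leaving out WT 1 gave 854 of 12267 genes, and leaving out Ifnar1-SA 1 gave 539 of 12114. Egr2 turned to 0.0081 with median-of-ratios and 0.046 with TMM scaling, and to 0.0048 without Ifnar1-SA 2. Egr1 turned to −0.029 without Ifnar1-SA 1 and −0.080 without both WT 2 and Ifnar1-SA 1. Egr3 turned to −0.042 without WT 2, −0.039 without WT 3 and −0.17 without Ifnar1-SA 2, and Nr4a3 to 0.0028 without Ifnar1-SA 2. The cause was not tested. With 1 library left out, Egr1 ranged from −0.029 to 0.17, Egr2 from −0.18 to 0.0048, Egr3 from −0.17 to 0.40 and Nr4a3 from −0.22 to 0.0028, and Egr2 was at −0.25 without both WT 2 and Ifnar1-SA 1.

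Over all genes, 2 were called higher and 5 lower in Ifnar1-SA. Lower calls were 12 and 11 with pseudocounts of 0.1 and 0.5, and 9 with array weights. Higher calls were 1 with no filter, 1 with median-of-ratios and 1 with quantile scaling. A mean of at least 5 TPM left 0 higher and 1 lower, and robust empirical Bayes gave 4 and 8. Leaving out both WT 2 and Ifnar1-SA 1 left 0 and 0. Leaving out 1 library gave 2 to 10 higher and 8 to 26 lower. With a replicate block there were 0 higher and 0 lower calls with limma, against 399 genes at an unadjusted p under 0.05, and no member's call changed. Deviations of same-numbered libraries correlated at −0.11, −0.11 and 0.15, so the numbers were not taken as pairs, and not every sample correlated best with its own number. Depth is unknown, so counting error at the level of Egr3 and Nr4a3 could not be given.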
